A study of Mus musculus with 6 samples.

Results

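Expression of 69 genes for sialyltransferases, fucosyltransferases, polypeptide GalNAc transferases and the enzymes that extend and branch glycans was compared between 393P cells carrying AC9 and the same line carrying the empty VECTOR. The members were taken by gene symbol alone (St3gal, St6gal, St6galnac, St8sia, Galnt, Fut, B4galt, B3gnt and Mgat stems), with 1 probe set for each symbol, and made up 69 of the 19505 genes named on the array. 393P, also written 9393P in the labels, is a mouse lung adenocarcinoma line. Both groups were stable transfectants made with jetPRIME, grown in serum-containing RPMI and selected with puromycin or G418, and each was represented by 3 samples, each hybridised to 1 Clariom S array. The labels do not say which drug selected which group, whether a group is a clone or a pool, or whether its 3 samples were separate cultures. Drug, clone and AC9 therefore cannot be told apart, and the p-values below reflect no more than sample-to-sample spread, possibly technical. AC9 is a synonym of Adcy9 (adenylyl cyclase 9, which makes cAMP) in the RefSeq gene table.

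Glycosyltransferases of the Golgi build the sugar chains of membrane and secreted proteins and of glycolipids by adding 1 sugar at a time. GalNAc transferases start mucin-type O-glycans on serine or threonine, Mgat enzymes set the number of branches of an N-glycan, and B4galt and B3gnt enzymes lengthen the branches with alternating galactose and N-acetylglucosamine. Sialyltransferases and fucosyltransferases then cap the chains. Selectins and Siglecs read such caps, while galectins read the galactose of the chains. In carcinoma cells, sialylated and fucosylated caps and branched N-glycans are known as features of the cell surface that change with adhesion and spread.

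Of the 69 members, 5 were higher and 9 lower in the AC9 cells by limma at an adjusted p of 0.05 over all genes, and 55 did not pass. That is 20.3% of the members, against 17.6% of all 19505 genes, so the members as a whole changed at close to the background rate. By direction, 7.25% of members were higher against 8.26% of all genes, and 13.0% were lower against 9.29%. The median log2 change of the members was -0.05, beside 0.02 over all genes. The arrays of the groups did not overlap in 26 of the 69 members, 15 lower and 11 higher. Over all genes 35.1% did not overlap, with 17.7% lower and 17.3% higher, so a lack of overlap below is common among all genes. Both groups lay under the 90th percentile of the negative control probe sets (6.06 on the log2 scale, the dim bound below) for 35 members, 1 group did for 2, and neither did for 32. The St3gal sialyltransferases supplied 5 of the 9 falls and 5 of the 14 calls. Among the other 63 members 5 were higher and 4 lower, or 14.3%. The count of 14 fell to 9 without VECTOR replicate 1, to 8 without VECTOR replicate 2, and to 7 without AC9 replicate 2 or without AC9 replicate 3. St3gal1, St3gal3, St3gal4, St3gal5, Galnt3 and B3gnt2 were the 6 members that passed whichever array was left out.

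**Figure D1:**
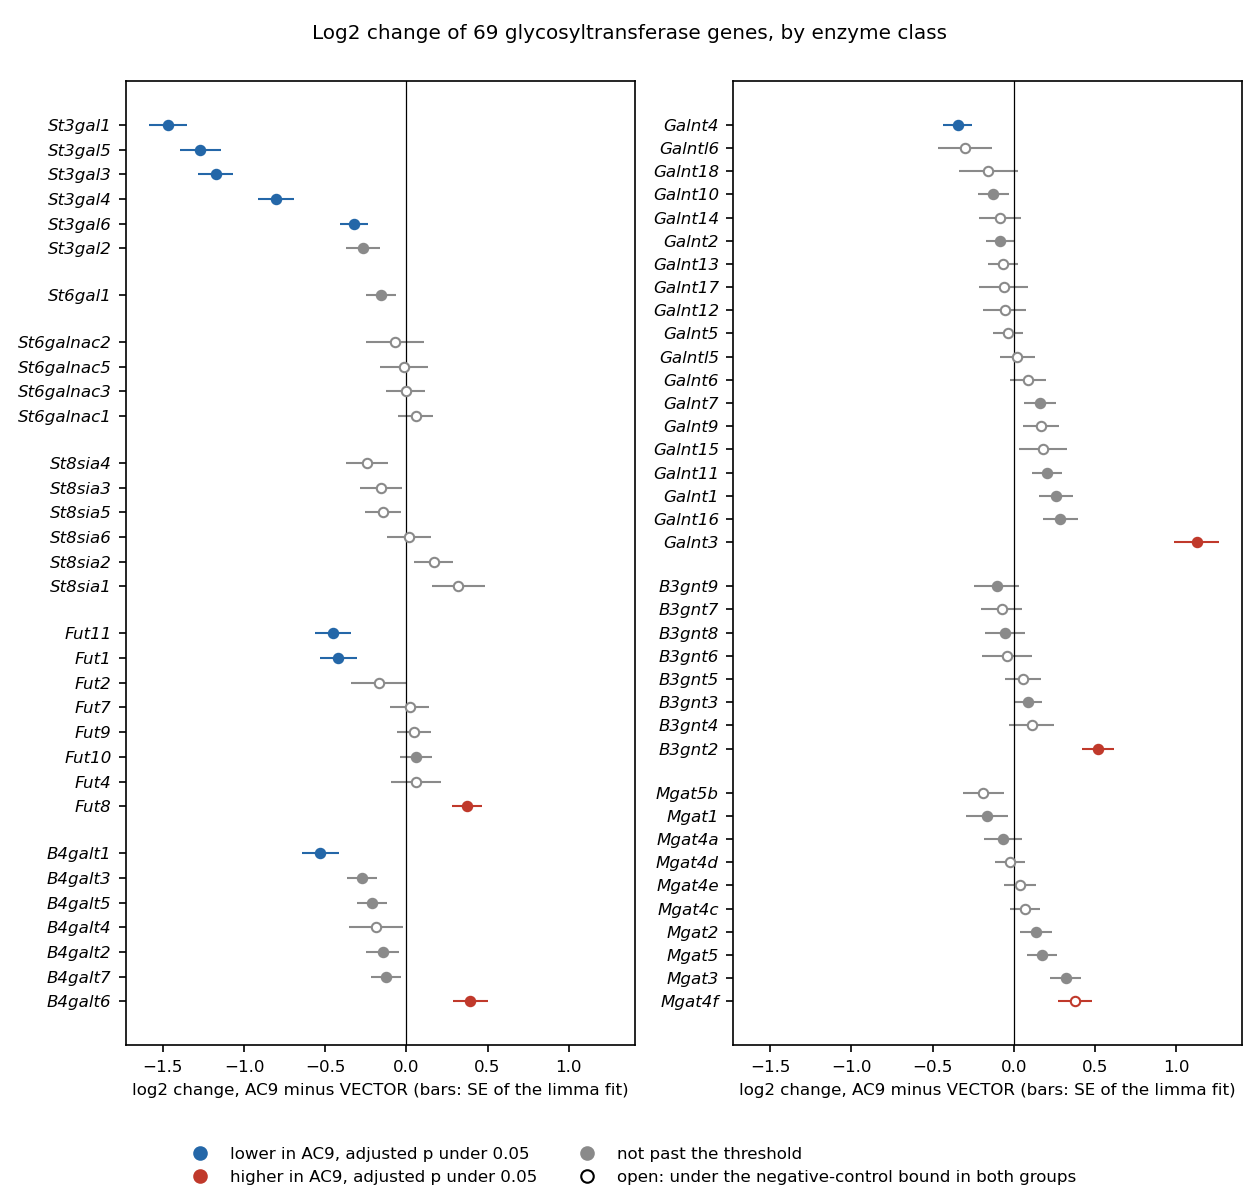
Log2 change (AC9 minus VECTOR, horizontal axis) of each of the 69 members, grouped by enzyme class, with bars for the standard error of the limma fit; colour gives the call and open points lie under the dim bound in both groups. The St3gal genes all lie left of 0, Galnt3 lies farthest right at 1.13, and most of the other members lie within 0.5 of 0.

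The arrays were alike in overall level, with a median log2 intensity of the genes of 6.42 to 6.46. Adcy9 itself read 6.12, 6.09 and 6.15 in VECTOR and 6.78, 6.60 and 6.82 in AC9, a log2 change of 0.61 (SE 0.10, adjusted p 0.00264), with VECTOR just above the dim bound and the groups apart. Of 11 epithelial markers 10 lay above the dim bound in at least 1 group (Nkx2-1 did not, and Cldn7 did in VECTOR only), 5 rose (Epcam, Krt7, Cldn4, Ocln and Tjp1) and Krt19 fell. In contrast, 7 of 8 leukocyte, 6 of 7 endothelial and 7 of 8 fibroblast markers lay under it in both groups. The leukocyte list's summed linear intensity was 448 to 501 in VECTOR and 744 to 791 in AC9, with Cd14 alone above the bound and Ptprc, Cd3e, Itgam, Adgre1, Csf1r, Lyz2 and Cd52 under it. All 9 measured markers of dividing cells were higher in AC9 (median log2 change 1.78), with summed linear intensities of 1744 to 1947 in VECTOR and 6069 to 6354 in AC9. The part of dividing cells in the results below was not tested. Of the 23 background probe sets, which are designed to match no transcript, 19 were lower in AC9 without overlap, with a median log2 difference of -0.06 over the 23 and a largest of -0.50. The part of this shift in the falls of the members was not tested.

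The St3gal enzymes join sialic acid to the terminal galactose of N-glycans, O-glycans or glycolipids. All 6 St3gal genes measured had lower means in AC9, the arrays of the groups did not overlap in any of them, and 5 fell by the limma test (St3gal1, St3gal3, St3gal4, St3gal5 and St3gal6). Over all genes, 9.29% were called lower, and 17.7% were lower without overlap. The median log2 change of the family was -0.99. It is set by St3gal3 and St3gal4, so it does not depend on the limit for St3gal1 given below. Under a repeated quantile normalization and with each array centred on its median, all 6 changes stayed below 0. These scalings changed little, with a median over all genes of 0.02 in the main fit and 0.01 and 0.04 after them. Shifts of this size could not bring any of the 6 above 0.

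St3gal1, which caps the galactose of the simplest mucin-type O-glycans, read 7.13, 7.53 and 7.40 in VECTOR and 5.92, 5.90 and 5.84 in AC9. Every AC9 array was under the dim bound and every VECTOR array above it, so the change has only a lower limit: the means of 7.35 ± 0.20 and 5.88 ± 0.04 (SD, n = 3) give a level at least 2.39-fold lower in AC9 (adjusted p 6.05e-05). St3gal2, which acts on the same kind of acceptor and on gangliosides, read 7.83, 7.92 and 7.69 in VECTOR against 7.47, 7.69 and 7.48 in AC9. Its closest arrays were nearly level, and the log2 change of -0.27 (95% interval -0.51 to -0.03, adjusted p 0.117) did not pass over all genes.

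St3gal5, the synthase of the ganglioside GM3 from lactosylceramide, read 8.86, 8.67 and 8.87 in VECTOR and 7.52, 7.76 and 7.32 in AC9. The highest AC9 array was well below the lowest VECTOR array. The log2 change was -1.27 (SE 0.13, adjusted p 0.000227), a 2.41-fold difference, larger than the SDs of 0.11 and 0.22 within the groups.

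St3gal3, St3gal4 and St3gal6 cap the galactose at the ends of N-acetyllactosamine chains, a step in making sialyl Lewis structures. St3gal3 read 8.50, 8.56 and 8.36 in VECTOR and 7.42, 7.13 and 7.34 in AC9, and fell 2.26-fold (log2 change -1.17, SE 0.11, adjusted p 0.000154). St3gal4 read 10.13, 10.20 and 9.85 in VECTOR and 9.20, 9.29 and 9.27 in AC9, and fell 1.75-fold (log2 change -0.81, SE 0.11, adjusted p 0.00135). In both genes each AC9 array lay below each VECTOR array. St3gal6 read 10.87, 10.93 and 10.89 in VECTOR and 10.60, 10.56 and 10.57 in AC9, a tight but small separation of 1.25-fold (log2 change -0.32, SE 0.09, adjusted p 0.0289). The call on St3gal6 was lost in each of the 6 fits without 1 of VECTOR replicates 1, 2 and 3 and AC9 replicates 1, 2 and 3 (adjusted p 0.0561 to 0.0864), while its log2 change stayed between -0.34 and -0.31, between the median (-0.06) and the largest (-0.50) difference of the background probe sets. The other 4 falls in the family were larger than -0.50 in size. The background probe sets set no limit on the shift in a gene, and its part in these falls was not tested.

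**Figure D2:**
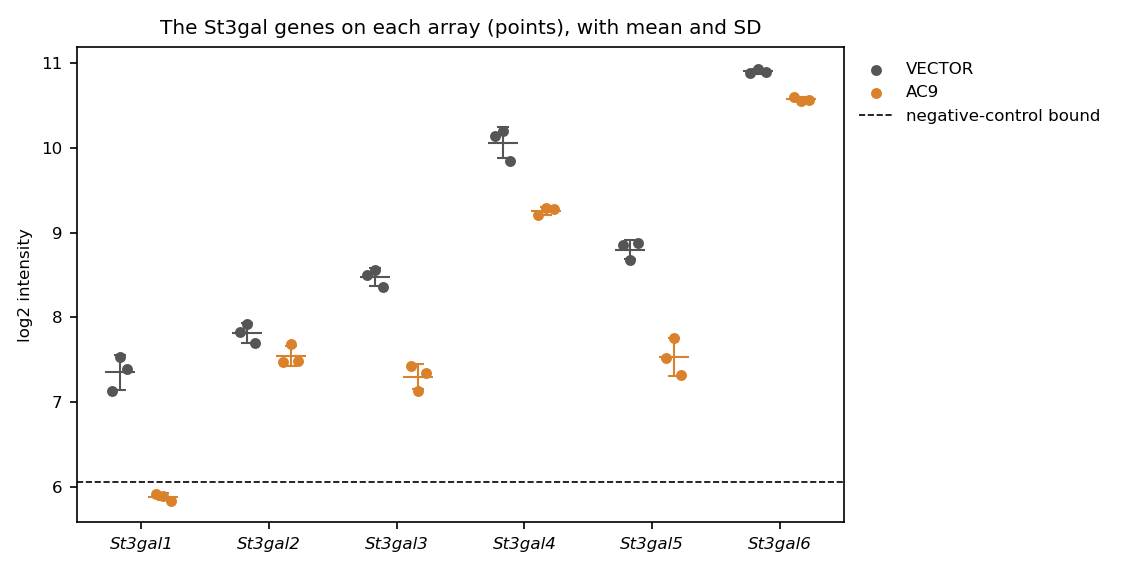
Log2 intensity (vertical axis) of the 6 St3gal genes on each of the 3 VECTOR and 3 AC9 arrays (points), with the mean and SD of each group and the dim bound dashed. The AC9 points lie below the VECTOR points in every gene; the St3gal1 points fall under the bound in AC9, and the St3gal2 and St3gal6 groups lie closest together.

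The other sialyltransferases gave no call. St6gal1, which adds sialic acid to N-glycan galactose through the other common linkage, read 9.78, 9.90 and 9.75 in VECTOR and 9.57, 9.67 and 9.73 in AC9. The groups did not overlap but lay close, and the log2 change was -0.16 (95% interval -0.37 to 0.06, adjusted p 0.315). St6galnac1, St6galnac2, St6galnac3 and St6galnac5, which sialylate O-glycan GalNAc or gangliosides, and the 6 measured St8sia genes, whose enzymes build disialyl and polysialyl chains, lay under the dim bound in both groups. For these 10 genes no size of change can be given. The smallest adjusted p was 0.780 in the St6galnac group (St6galnac1) and 0.227 in the St8sia group (St8sia1), the others being St8sia2, St8sia3, St8sia4, St8sia5 and St8sia6. Signal of sialyltransferase genes above the bound was thus that of the St3gal family and St6gal1, and whether the St3gal changes differ from that of St6gal1 was not tested.

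Promoter windows of 300 bases around a RefSeq start site (GRCm38.p6) were on hand for 50 of the 69 members and 11 of the 14 called ones. The cAMP response element TGACGTCA, its shorter core TGACG and the GC box GGGCGG were searched on both strands; the element contains the core. The full element was in 0 of the 11 called members' windows, and among all members it was in those of B4galt3 and Galnt11, which did not pass the test; 1.79% of all 32851 windows held it. The core was in 14 of the 68 member windows, or 20.6%, and in 20.8% of all windows; among called members St3gal5 and B3gnt2 held it. GC boxes were in 40 of the 68 windows of the members, or 58.8%, and in 35.7% of all windows. Counted by gene, 38 of the 50 members with a window held one, 10 of them among the 11 called. No share by gene over all genes is given here, so these counts have no background to be read against. A match describes letters only. Below are the windows of the 3 St3gal genes with the clearest falls that had a window, and of Galnt3 and B3gnt2, the 2 members that rose whichever array was left out, shown so that genes moving in both directions can be set side by side; they were chosen after their values were seen. Each is written along its gene's strand, with GC boxes and cores in either orientation in capitals.
St3gal3 (chr4:118134897-118135196, minus strand): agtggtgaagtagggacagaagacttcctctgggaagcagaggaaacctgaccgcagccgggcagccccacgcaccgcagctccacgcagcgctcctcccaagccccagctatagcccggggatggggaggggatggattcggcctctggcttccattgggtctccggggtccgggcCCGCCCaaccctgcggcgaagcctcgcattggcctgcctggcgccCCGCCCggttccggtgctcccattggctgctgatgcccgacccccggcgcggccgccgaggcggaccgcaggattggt
St3gal4 (chr9:35116815-35117114, minus strand): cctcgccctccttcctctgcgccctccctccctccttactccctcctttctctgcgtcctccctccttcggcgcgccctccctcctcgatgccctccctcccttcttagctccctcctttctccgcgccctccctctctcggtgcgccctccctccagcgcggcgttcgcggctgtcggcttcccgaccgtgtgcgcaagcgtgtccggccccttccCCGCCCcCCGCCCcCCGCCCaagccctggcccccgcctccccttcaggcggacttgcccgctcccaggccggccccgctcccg
St3gal5 (chr6:72097358-72097657, plus strand): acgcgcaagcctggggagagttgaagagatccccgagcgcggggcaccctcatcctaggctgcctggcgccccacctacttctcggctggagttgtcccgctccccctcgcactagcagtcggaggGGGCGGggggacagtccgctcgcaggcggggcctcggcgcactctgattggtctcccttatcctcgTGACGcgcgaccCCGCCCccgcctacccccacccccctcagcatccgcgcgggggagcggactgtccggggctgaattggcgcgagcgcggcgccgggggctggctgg
Galnt3 (chr2:66124744-66125043, minus strand): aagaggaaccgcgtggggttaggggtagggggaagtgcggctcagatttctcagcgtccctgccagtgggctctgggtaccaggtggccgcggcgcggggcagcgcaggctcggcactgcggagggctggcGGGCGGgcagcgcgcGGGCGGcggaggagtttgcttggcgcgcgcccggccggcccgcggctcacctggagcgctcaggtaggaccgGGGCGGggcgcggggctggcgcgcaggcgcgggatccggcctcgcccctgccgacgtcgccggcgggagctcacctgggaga
B3gnt2 (chr11:22859686-22859985, minus strand): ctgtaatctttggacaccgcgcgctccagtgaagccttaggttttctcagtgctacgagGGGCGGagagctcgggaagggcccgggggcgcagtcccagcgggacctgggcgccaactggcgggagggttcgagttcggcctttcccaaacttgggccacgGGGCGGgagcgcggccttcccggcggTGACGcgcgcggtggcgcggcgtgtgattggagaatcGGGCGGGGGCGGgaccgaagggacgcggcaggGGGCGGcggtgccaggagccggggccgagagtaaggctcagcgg

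GC boxes were in all 5 of these windows. The St3gal3 window held 2 GC boxes and the St3gal5 window 2, with 1 core in St3gal5, and St3gal4 held 3 GC boxes. Galnt3 held 3, and B3gnt2 held 5 with 1 core. The GC content of these windows was 70.0% to 76.7%. St3gal6 had a pair of start sites in the table, with 0 GC boxes in the window of 1 (GC content 38.7%) and 5 in that of the other (64.7%).

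The polypeptide GalNAc transferases (Galnt genes) place the first sugar of mucin-type O-glycans, and differ in which peptides they accept. Of 19 measured, 1 rose, 1 fell and 17 did not pass, so 10.5% were called against 17.6% of all genes. Galnt3, known for protecting the phosphate hormone FGF23 from cleavage and as an epithelial enzyme, read 6.68, 6.32 and 6.87 in VECTOR and 7.71, 7.83 and 7.70 in AC9. It rose 2.18-fold (log2 change 1.13, SE 0.14, adjusted p 0.000690), the largest rise among the members, with every AC9 array above every VECTOR array. Galnt4, a transferase that prefers peptides already carrying GalNAc, read 7.14, 7.19 and 7.29 in VECTOR and 6.89, 6.87 and 6.83 in AC9. Its groups were tight and apart, with a log2 change of -0.35 (SE 0.09, adjusted p 0.0270), but when 1 array was left out the call held only without VECTOR replicate 1 (adjusted p 0.0446 to 0.0894 over the 6 fits). The count of 2 was 1 without VECTOR replicate 2 or any of AC9 replicates 1, 2 and 3. Without VECTOR replicate 3 Galnt4 also lost its call (adjusted p 0.0727), so the count there does not rest on the same 2 genes.

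Among the Galnt genes above the bound, Galnt16, Galnt1, Galnt11 and Galnt7 had log2 changes of 0.29, 0.26, 0.20 and 0.16, with non-overlapping arrays, and did not pass (adjusted p 0.1, 0.125, 0.179 and 0.312). Galnt2, a broadly expressed initiating enzyme, and Galnt10 had log2 changes of -0.09 and -0.13 (adjusted p 0.571 and 0.434), the first without overlap. Of the 19 Galnt genes, 7 had groups without overlap, 5 of them higher, beside 35.1% and 17.3% of all genes. Both groups lay under the dim bound for 11 Galnt genes, Galnt5, Galnt6, Galnt9, Galnt12, Galnt13, Galnt14, Galnt15, Galnt17, Galnt18, Galntl5 and Galntl6, and none of them passed. The median log2 change of the class was -0.04 over all 19 genes, beside 0.02 over all genes. It was 0.16 over the 9 left when dim genes were left out, a fit for which the median over all genes is not given here.

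Fucosyltransferases (Fut genes) attach fucose to the core of N-glycans, to outer chains or to protein. Of 8 measured, 1 rose and 2 fell, or 37.5% called against 17.6% of all genes. Fut8, which adds the core fucose of N-glycans, read 8.58, 8.62 and 8.60 in VECTOR and 8.87, 9.01 and 9.05 in AC9. It rose 1.30-fold (log2 change 0.37, SE 0.09, adjusted p 0.0213), with no overlap between the groups. Fut11, assigned to fucose on protein, read 7.0, 7.04 and 7.05 in VECTOR and 6.79, 6.46 and 6.48 in AC9. The log2 change of Fut11 was -0.45 (SE 0.11, adjusted p 0.0198). Fut1, which makes the H antigen by fucosylating terminal galactose, read 6.26, 6.13 and 5.99 in VECTOR and 5.87, 5.55 and 5.71 in AC9. The AC9 mean of Fut1, 5.71 ± 0.16, was under the dim bound and the VECTOR mean, 6.13 ± 0.13 (SD, n = 3), just above it, so Fut1 was at least 1.02-fold lower (adjusted p 0.0349).

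None of these 3 calls held for every left-out array. Without VECTOR replicate 1 or VECTOR replicate 2 the class had 1 call, and without AC9 replicate 2 or AC9 replicate 3 it had 0. The call on Fut8 was lost without VECTOR replicate 1, AC9 replicate 2 or AC9 replicate 3 (adjusted p 0.0603, 0.0697 and 0.0819). Fut11 did not pass without VECTOR replicate 2 (0.0542), VECTOR replicate 3 (0.052), AC9 replicate 2 (0.0721) or AC9 replicate 3 (0.0743). Fut1 did not pass without VECTOR replicate 1 (0.109), VECTOR replicate 2 (0.0823), AC9 replicate 2 (0.117) or AC9 replicate 3 (0.0898). Fut10, above the bound, had a log2 change of 0.06 (adjusted p 0.753). Fut2, Fut4, Fut7 and Fut9, the last 3 being the enzymes that put fucose on N-acetyllactosamine to make Lewis structures, lay under the bound in both groups.

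The B4galt enzymes add galactose, the sugar that the St3gal enzymes cap, and some of them make lactosylceramide or start glycosaminoglycan chains. Of 7 measured, 1 rose and 1 fell, or 28.6% called against 17.6% of all genes, and the other 5 did not pass. The 4 of these 5 above the dim bound had log2 changes from -0.27 to -0.13. B4galt1, the main galactosyltransferase of N-glycan branches, read 11.57, 11.35 and 11.27 in VECTOR and 10.73, 11.00 and 10.86 in AC9. It fell 1.45-fold (log2 change -0.53, SE 0.11, adjusted p 0.0115), with no overlap; without AC9 replicate 1 its adjusted p was 0.0517. B4galt6, a lactosylceramide synthase, read 7.98, 8.20 and 8.26 in VECTOR and 8.46, 8.64 and 8.51 in AC9. It rose 1.31-fold (log2 change 0.39, SE 0.11, adjusted p 0.0325), yet when 1 array was left out it passed only without VECTOR replicate 3 (adjusted p 0.035 to 0.109 over the 6 fits).

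B4galt5, the other lactosylceramide synthase, had a log2 change of -0.21 (adjusted p 0.155), and B4galt3 one of -0.27 (adjusted p 0.0779), both without overlap of the arrays. B4galt2 and B4galt7, the latter an enzyme of the glycosaminoglycan linkage region, had -0.15 and -0.13 (adjusted p 0.378 and 0.412), and B4galt4 lay under the bound. The class count of 2 was 0 without AC9 replicate 1, and 1 when replicate 1 or 2 of VECTOR, or replicate 2 or 3 of AC9, was left out.

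The B3gnt enzymes add the N-acetylglucosamine that extends a chain. B3gnt2, the main enzyme of polylactosamine synthesis, was the 1 of 8 that passed, or 12.5% against 17.6% of all genes. It read 9.74, 9.82 and 9.80 in VECTOR and 10.38, 10.37 and 10.17 in AC9, and rose 1.43-fold (log2 change 0.52, SE 0.10, adjusted p 0.00593). The groups stood well apart, and the call held in each fit without 1 array (adjusted p 0.00989 to 0.0302). B3gnt3, which extends O-glycans, had a log2 change of 0.09 (adjusted p 0.570), B3gnt8 -0.05 and B3gnt9 -0.10 (adjusted p 0.826 and 0.671). B3gnt4, B3gnt5, B3gnt6 and B3gnt7 lay under the bound in both groups.

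Mgat enzymes such as Mgat1, Mgat2 and Mgat5 start the antennae of N-glycans. No Mgat gene above the bound passed, and 10.0% of the 10 measured did, against 17.6% of all genes. Mgat3, which adds the bisecting N-acetylglucosamine, came nearest, at 8.50, 8.41 and 8.26 in VECTOR and 8.74, 8.66 and 8.73 in AC9. Its groups did not overlap, and the log2 change of 0.32 (95% interval 0.10 to 0.54) had an adjusted p of 0.0521. It passed with each array centred on its median (adjusted p 0.0409), with the intensity-trended prior (0.0144) and with dim genes left out (0.0193). Mgat5, the enzyme of the branch that carries polylactosamine, had a log2 change of 0.17 (95% interval -0.04 to 0.39, adjusted p 0.258). Mgat1 and Mgat2, which act earlier in complex N-glycan synthesis, had -0.16 and 0.14 (adjusted p 0.455 and 0.4), and Mgat4a had -0.07 (adjusted p 0.769). Mgat4f passed the test as higher (adjusted p 0.0375), but both groups lay far under the bound, so no size is given; it read 4.20, 4.04 and 4.17 in VECTOR and 4.35, 4.59 and 4.60 in AC9, and passed only without AC9 replicate 1 among the fits that left out an array. Mgat4c, Mgat4d, Mgat4e and Mgat5b were also under it.

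**Figure D3:**
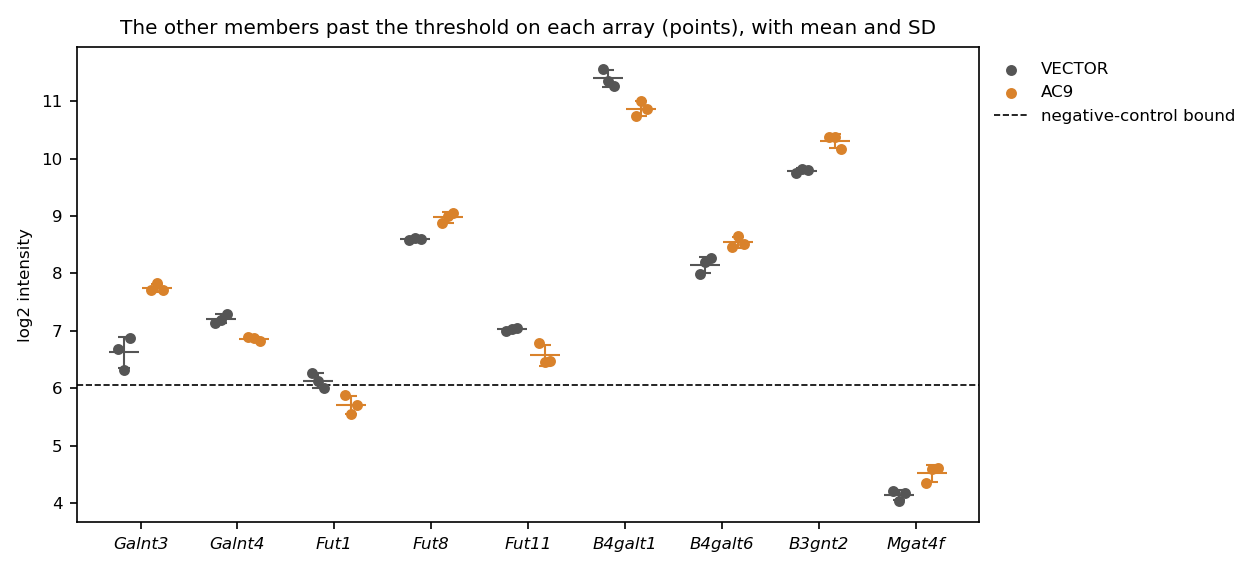
Log2 intensity (vertical axis) of the 9 called members outside the St3gal family on each of the 3 VECTOR and 3 AC9 arrays (points), with the mean and SD of each group and the dim bound dashed. Galnt3 shows the widest separation, at 6.62 against 7.75; Fut1 straddles the bound and Mgat4f lies under it in both groups.

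Genes that supply, complete or read the same glycans were counted from lists drawn up by function. Of 36 genes for nucleotide sugars and their Golgi transporters, 5 rose and 7 fell, 33.3% called against 17.6% of all genes; the count of 12 was 7 without AC9 replicate 1. Gmds, the first enzyme of GDP-fucose synthesis from GDP-mannose, fell 2.01-fold (log2 change -1.01, adjusted p 0.000274). Its arrays read 8.77, 8.67 and 8.55 in VECTOR against 7.59, 7.59 and 7.79 in AC9, far apart. Ugp2, which makes UDP-glucose, had a log2 change of -0.79 (adjusted p 0.000697), and Slc35d1, a transporter of UDP-glucuronic acid and UDP-GalNAc, rose by 0.79 (adjusted p 0.000550). Among genes picked out after their values were seen, Gfus, which completes GDP-fucose, changed by -0.53 (adjusted p 0.00640). The sialic acid donor genes, singled out the same way, did not pass. Gne, which starts sialic acid synthesis, had a log2 change of 0.10 (95% interval -0.13 to 0.34), Cmas, which makes CMP-sialic acid, -0.02 (-0.25 to 0.22), and Slc35a1, its Golgi transporter, -0.06 (-0.30 to 0.18). Nans, the sialic acid synthase, had -0.33 (adjusted p 0.0631).

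Of 14 genes for sulfation or O-acetylation of outer sugars, 1 rose and 5 fell, 2 of them under the bound in both groups. That is 42.9% called against 17.6% of all genes, and 35.7% lower against 9.29%. Siae, an esterase that removes O-acetyl groups from sialic acid, was the furthest of these, at 8.99, 8.91 and 9.05 in VECTOR and 7.59, 7.52 and 7.57 in AC9. The separation was many times the SDs of 0.07 and 0.03, a 2.68-fold fall (log2 change -1.42, SE 0.09, adjusted p 2.09e-05). Casd1, which adds those O-acetyl groups, fell too (log2 change -0.57, adjusted p 0.00581), while the GalNAc sulfotransferase Chst8 rose by 0.42 (adjusted p 0.0225), a call lost without VECTOR replicate 1 (0.0746), VECTOR replicate 3 (0.0528), AC9 replicate 2 (0.0816) or AC9 replicate 3 (0.0575). The list's count of 6 was 3 without VECTOR replicate 1, 3 without VECTOR replicate 3 and 2 without AC9 replicate 3.

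Among 17 glycosidases, which take glycans apart mostly in the lysosome, 1 rose and 8 fell. The share called was 52.9% and the share lower 47.1%, against 17.6% and 9.29% of all genes. Their median log2 change was -0.26, beside 0.02 over all genes. Naglu, Fuca1 and Gusb, which remove N-acetylglucosamine, fucose and glucuronic acid, had log2 changes of -0.90, -0.76 and -0.74 (adjusted p 0.000213, 0.00150 and 0.00131). Neu1, the lysosomal sialidase, named after its value was seen, changed by -0.42 (adjusted p 0.0226) and kept its call only without VECTOR replicate 3 among the 6 fits that left out an array (adjusted p 0.0143 to 0.0751). Of 26 galectins, selectins, Siglecs and proteins that carry their ligands, 1 rose and 6 fell, with a median of -0.07. That is 26.9% called and 23.1% lower, against 17.6% and 9.29% of all genes. The galectin genes Lgals4 and Lgals9 had log2 changes of -1.34 and -1.02 (adjusted p 0.000291 and 0.000322), and Cd24a, a heavily glycosylated surface protein, -0.96 (adjusted p 0.000288). In all 3 the arrays were apart: Lgals4 read 7.91 to 8.34 in VECTOR and 6.60 to 6.94 in AC9, Lgals9 10.12 to 10.32 and 9.11 to 9.38, and Cd24a 11.41 to 11.67 and 10.53 to 10.60.

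Of 26 genes for O-glycan cores and chain extension outside the member families, 3 rose and 2 fell, with a median of 0.00. The share called was 19.2%, close to the 17.6% of all genes. B4galnt2, which adds GalNAc to galactose already capped by a St3gal enzyme, making the Sda antigen, read 5.30, 4.99 and 5.55 in VECTOR and 6.45, 6.78 and 6.19 in AC9. All VECTOR arrays lay under the bound and all AC9 arrays above it, at least 1.36-fold higher (adjusted p 0.00190). B3galnt2, an enzyme of dystroglycan O-mannose glycans, rose by 0.53 (adjusted p 0.0103), and B3galnt1, the globoside synthase, was called lower (adjusted p 0.00520) at means of 6.06 and 5.26, where the VECTOR level was itself at the bound and no fold is given. Of 39 genes for assembly and trimming of the N-glycan precursor, 2 rose and 6 fell, or 20.5% against 17.6% of all genes. Alg13 rose by 0.59 (adjusted p 0.0210), and Tusc3 and Alg1 had log2 changes of -0.47 and -0.46 (adjusted p 0.0122 and 0.00878). The call on Alg13 was lost without VECTOR replicate 1 (0.0593), VECTOR replicate 2 (0.0522), AC9 replicate 1 (0.0704) or AC9 replicate 3 (0.0676), and that on Tusc3 without AC9 replicate 3 (0.0517). That list's count of 8 was 4 when replicate 1 or 2 of VECTOR or replicate 1 of AC9 was left out, 5 without AC9 replicate 2 and 2 without AC9 replicate 3. Of 16 genes for O-fucose, O-mannose and O-GlcNAc, 1 rose and 3 fell, with a median of -0.21. The share called was 25.0%, against 17.6% of all genes. Lfng, the Fringe enzyme that extends O-fucose on Notch, changed by -0.70 (adjusted p 0.00130), Ogt, which adds O-GlcNAc, by -0.43 (adjusted p 0.00949), and Oga, which removes it, rose by 0.45 (adjusted p 0.00902).

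**Figure D4:**
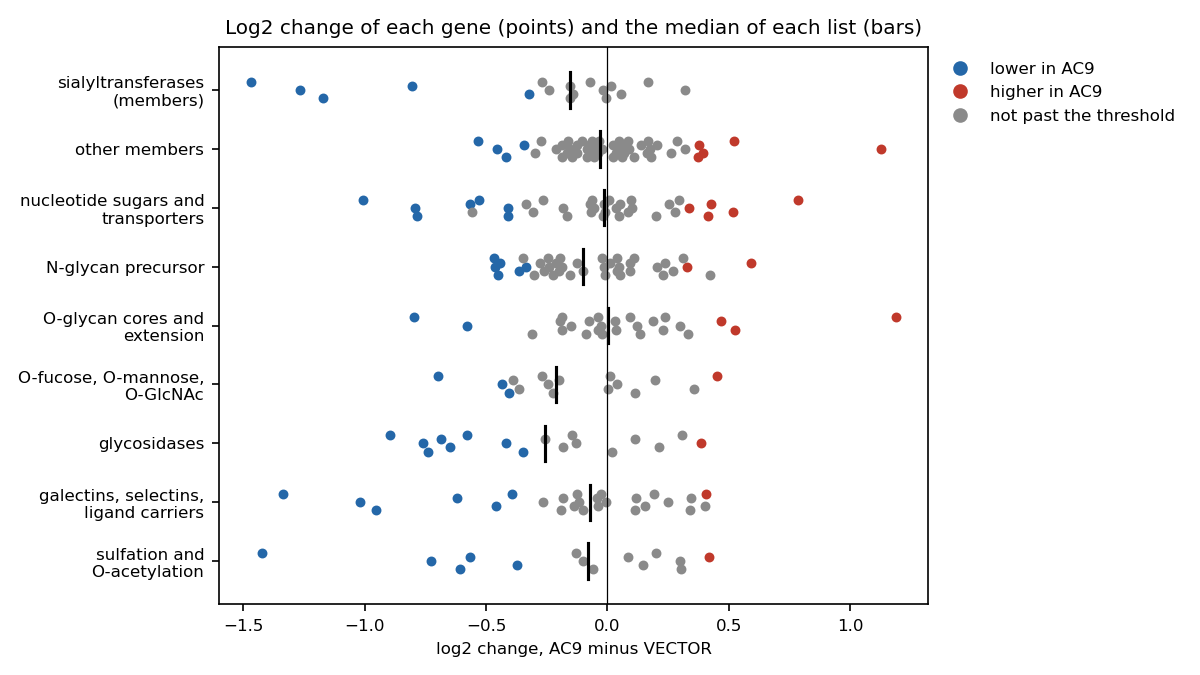
Log2 change (AC9 minus VECTOR, horizontal axis) of each gene (points) among the sialyltransferases, the other members and the 7 further lists, with a bar at each median; colour gives the limma call. In the sialyltransferase row, 4 points lie at -0.81 or below; glycosidases have the lowest list median, -0.26.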

How the data were processed

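The deposited table holds log2 intensities per probe set for 3 VECTOR and 3 AC9 arrays. The authors made these log2 values with RMA, per the submitters' processing notes, which corrects background, quantile-normalizes and summarises probes; for its software and version, the sources used here say nothing. GEO's platform annotation named 19572 probe sets with exactly 1 symbol; each of the 19505 symbols was represented by its brightest probe set on average, and each member had 1. The dim bound is the 90th percentile of 5222 negative control probe sets; a group counts as dim when its mean is under the bound averaged over its arrays. A fold with 1 dim group is a lower limit, the brighter mean against the higher, per array, of the bound and the gene's own value.

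AC9 was compared with VECTOR by limma 3.58.1 in R 4.3.3 (lmFit, eBayes, two-sided, Benjamini-Hochberg over all genes, threshold 0.05), tested on simulated data. The number of arrays limits the precision. The rule for naming took every called member above the bound, the nearest member of classes without a call, Adcy9, and up to 3 genes per list by size of change. Members, lists and tests were chosen with earlier results of these data known. Alternatives were another prior, 2 scalings, a filter on dim genes (lowest 40% by mean left out), other probe set choices, array weights, a replicate block, left-out arrays, an adjusted p of 0.01 and a 1.5-fold minimum. No coordinates of the array's probes were used; promoter windows are RefSeq's, in GRCm38.p6. Protein sequences were not used here.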

Additional observations from a re-analysis of the deposited data

Results flagged for a closer look

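Outside the main measurement, 19 of the 23 background probe sets were lower in AC9 without overlap of the arrays and 0 were higher. The difference was largest in the class named for 25 G or C bases, at 6.80 ± 0.17 in AC9 against 7.30 ± 0.24 in VECTOR (SD, n = 3), and its median over the 23 was -0.06. Of 2634 probe sets left unnamed here, 150 were higher and 128 lower in AC9 when tested by limma together with the genes.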

How the results depend on the processing

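No called member changed direction under any alternative run (0 reversals). The groups did not overlap in any called member, so leaving out 1 array could not have reversed a change. The counts of all genes called (3424; 1612 higher, 1812 lower) were 1670 (729 and 941) at an adjusted p of 0.01 and 1323 (581 and 742) with a 1.5-fold minimum, and leaving out 1 array gave 2174 to 3025 (968 to 1491 higher, 1206 to 1534 lower). With arrays centred on the median, 1861 genes were higher and 1650 lower. Members called were 6 (2 higher, 4 lower) at 0.01 and 5 (1 and 4) at 1.5-fold; left-out arrays gave 7 to 11 (2 to 4 higher, 5 to 7 lower). By class, the counts at 0.01 and at 1.5-fold were 1 and 1 for Galnt, 0 and 0 for Fut, 0 and 0 for B4galt, 0 and 0 for Mgat, and 0 for B3gnt at 1.5-fold. Mgat had 0 calls after repeated quantile normalization and 2 with arrays centred. With left-out arrays the ranges were 4 to 4 for St3gal, 1 to 2 for Galnt, 0 to 3 for Fut, 0 to 2 for B4galt, 1 to 1 for B3gnt, 0 to 1 for Mgat. The lists at 0.01 and at 1.5-fold gave 6 and 4 of the 12 for nucleotide sugars, 2 and 1 of the 8 for the N-glycan precursor, 5 and 5 of the 9 for glycosidases, 3 and 4 of the 7 for galectins and ligand carriers, and 2 and 3 of the 6 for sulfation and O-acetylation; at 1.5-fold, O-glycan cores gave 2 and O-fucose 1. With left-out arrays these lists ranged over 7 to 10 for nucleotide sugars, 2 to 7 for the N-glycan precursor, 5 to 5 for O-glycan cores, 3 to 5 for O-fucose, 6 to 8 for glycosidases, 5 to 7 for galectins and ligand carriers, 2 to 5 for sulfation and O-acetylation. The N-glycan precursor list had 17 calls with the trended prior, 15 with dim genes left out and 5 after quantile normalization, and the O-fucose list 8 with the trended prior and 7 with dim genes left out. The median log2 change of the Galnt class was 0.16 with dim genes left out, and that of the Fut class ranged from -0.055 (without VECTOR replicate 3) to 0.055 over the left-out arrays; other class medians moved by less than the spread between replicates. The cause of these differences was not tested, beyond fewer genes or arrays entering a fit. Same-numbered samples did not deviate together (correlations of 0.01, 0.08 and 0.01 across genes), so the numbers were not taken as pairs, and not every sample correlated best with its own number; with the replicate block St3gal6, Galnt4 and Mgat4f did not pass, leaving 1 call in Galnt and 0 in Mgat, and 3062 genes were called in all. Signal over background limits 35 members, for which no size of change could be given.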
